A study of Homo sapiens with 12 samples.

Results

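Regions of open chromatin that were listed with a SOX2-FOXA2 CTD fusion protein and not in wild-type U2OS cells, and the opposite, were described here. The list of the fusion held 177650 entries and that of its wild type 110813 on chromosomes 1 to 22 and X, at any irreproducible discovery rate (IDR, the estimated chance that a peak does not repeat between 2 inputs). Entries of both lists were merged where they overlapped by at least 1 bp, which gave 207658 regions. A region with an entry of the fusion and none of the wild type was called gained, which applied to 98192 regions (47.3% of all merged regions). A region with a wild-type entry and none of the fusion was called lost, which applied to 32160 regions (15.5%). The remaining 77306 regions were shared. Gained and lost regions together numbered 130352, and all 9 lists of the series merged to 399183 regions.

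The assay was ATAC-seq, which uses the transposase Tn5 to cut accessible DNA and tag it for sequencing. It was run on 12 samples of U2OS, a cell line from a human osteosarcoma. The fusion samples were U2OS cells with a Tet-on construct, genotype SOX2FOXA2CTD, given doxycycline at 500 ng/ml for 4 days. The samples with full-length SOX2 (Tet-on SOX2), full-length FOXA2 (Tet-on FOXA2) and CTD-deleted FOXA2 (Tet-on FOXA2dCTD), whose lists are read further on, had the same treatment entered. The wild type of the FOXA2 samples had neither a genotype nor a treatment entered. In the fusion, full-length SOX2 was joined to the CTD of FOXA2, and the series text calls the constructs Flag-tagged. The samples compared with the fusion samples were labelled WT_SOX2_CellLine, with neither a genotype nor a treatment entered. The series text speaks of wild-type U2OS cells, while the label also names the SOX2 line. Whether these were parental cells or the SOX2 line without induction, and whether they had received doxycycline, was not known. Each group had 2 samples but only 1 list. Every entry carried a −log10 p from each of 2 inputs, which were taken to be both samples of the group. With 1 list per group no spread between replicates can be had, so no test was made. The 95% Wilson intervals given for shares cover counting error only.

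SOX2 belongs to the HMG-box family, binds the minor groove of DNA, and can bind sites wrapped around nucleosomes, for which it is called a pioneer factor. It holds pluripotent and neural progenitor cells in their state and specifies foregut epithelium. FOXA2 is a forkhead factor of endoderm and liver, also a pioneer factor, and its CTD is the stretch behind the DNA-binding domain. SOX proteins recognise ACAATG or ACAAAG.

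Gene-start windows that a gained or a lost region overlapped are shown first, because they are the stretches for which bases could be read next to the calls. Each is the RefSeq window of 300 bases on build GRCh38.p14, from 250 before to 50 after the gene start, on the strand of the gene. Capitals mark ACAATG or ACAAAG on either strand. The 4 windows overlapped by the strongest gained regions came first, where strength is the lower −log10 p of both inputs. Which windows to print was chosen after their values had been seen.
LGSN: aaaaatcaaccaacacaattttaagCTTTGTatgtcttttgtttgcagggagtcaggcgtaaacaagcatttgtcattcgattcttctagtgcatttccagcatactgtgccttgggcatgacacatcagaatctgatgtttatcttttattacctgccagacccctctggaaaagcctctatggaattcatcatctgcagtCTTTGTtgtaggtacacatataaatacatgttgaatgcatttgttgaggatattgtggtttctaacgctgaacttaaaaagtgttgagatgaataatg
DIPK1A: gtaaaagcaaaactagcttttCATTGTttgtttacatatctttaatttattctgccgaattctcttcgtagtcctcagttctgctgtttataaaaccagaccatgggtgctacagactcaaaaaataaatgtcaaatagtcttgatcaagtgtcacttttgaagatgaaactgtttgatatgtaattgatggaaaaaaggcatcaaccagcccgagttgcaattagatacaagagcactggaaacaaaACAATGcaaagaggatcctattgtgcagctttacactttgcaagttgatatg
ANKUB1: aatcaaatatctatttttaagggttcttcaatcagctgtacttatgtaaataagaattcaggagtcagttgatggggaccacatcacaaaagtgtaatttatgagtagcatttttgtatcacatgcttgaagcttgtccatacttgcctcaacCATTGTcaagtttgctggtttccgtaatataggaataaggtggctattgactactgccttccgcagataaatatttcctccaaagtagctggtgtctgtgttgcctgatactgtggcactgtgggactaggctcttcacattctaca
CNKSR3: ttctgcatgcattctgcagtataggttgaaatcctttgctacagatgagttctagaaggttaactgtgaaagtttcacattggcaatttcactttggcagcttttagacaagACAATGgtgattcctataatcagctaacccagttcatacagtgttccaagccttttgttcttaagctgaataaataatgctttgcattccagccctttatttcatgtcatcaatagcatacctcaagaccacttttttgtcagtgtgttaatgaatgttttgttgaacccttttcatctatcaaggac
LGSN, which encodes the lens protein lengsin, had a gained region with inputs of 27.2 and 30.4 at its start on chromosome 6 (63319708 to 63320800), and its window held 2 SOX matches. DIPK1A had inputs of 25.9 and 22.5 at chromosome 1 (92876847 to 92878034), with 2 matches, 1 on each strand. ANKUB1 had inputs of 20.5 and 22.2 at chromosome 3 (149792602 to 149793436), where the region overlaps the upstream part of the window and not the start itself. CNKSR3, a scaffold protein of the Ras pathway, had 20.3 and 21.3 at chromosome 6 (154433621 to 154434323). The windows of ANKUB1 and CNKSR3 held 1 match each. The G and C content of these windows was 37.3%, 35.3%, 39.3% and 37.0%.

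The 2 windows overlapped by the strongest lost regions follow, again with SOX matches in capitals.
TSPAN4: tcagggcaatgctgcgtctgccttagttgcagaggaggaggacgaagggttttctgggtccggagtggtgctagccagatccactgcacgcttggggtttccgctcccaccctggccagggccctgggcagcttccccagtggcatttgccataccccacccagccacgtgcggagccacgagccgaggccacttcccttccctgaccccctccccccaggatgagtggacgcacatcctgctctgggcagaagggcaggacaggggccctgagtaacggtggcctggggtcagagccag
LFNG: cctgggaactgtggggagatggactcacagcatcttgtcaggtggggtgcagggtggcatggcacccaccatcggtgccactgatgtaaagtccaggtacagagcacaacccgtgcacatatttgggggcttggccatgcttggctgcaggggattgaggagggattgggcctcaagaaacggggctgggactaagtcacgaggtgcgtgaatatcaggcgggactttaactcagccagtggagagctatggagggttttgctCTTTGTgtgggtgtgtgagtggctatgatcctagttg
TSPAN4, a tetraspanin of the cell membrane, had a lost region with wild-type inputs of 20.2 and 20.2 at chromosome 11 (843603 to 845062), and no SOX match. LFNG, the fringe enzyme that adds sugars to Notch receptors, had inputs of 30.9 and 19.2 at chromosome 7 (2517001 to 2517976), and 1 match. Their windows held 65.3% and 56.0% G and C.

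Gained regions outnumbered lost ones in lists of unequal length. There were 3.05 gained regions for each lost one. When each list was cut to its 110813 strongest entries, 52060 regions were gained and 51882 lost. Lists of equal length leave about equal numbers unshared by construction, so these counts say nothing of the source of the excess. At an IDR of at most 0.05 in both lists, 44992 were gained and 17681 lost. Where only the gained or lost entry had to pass that IDR, and the other list had to have no entry at all, 32349 were gained and 4416 lost. Read depth was unknown, so it cannot be told apart from accessibility as a source of the longer fusion list. Few calls lay at the edge of the rule. A wild-type entry lay within 500 bp of 3495 gained regions (3.56%), and a fusion entry within 500 bp of 3349 lost ones (10.4%). Of the shared regions, 287 were shared through an overlap under 100 bp.

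The series' depth is seen only through these lists. Of all entries, 42.5% (fusion) and 43.4% (wild type) passed an IDR of 0.05. Markers of the cell line were open in both lists: all 5 mesenchymal markers with a gene start here (RUNX2, SPARC, VIM, FN1 and S100A4) had an entry within 1 kb in each. The blood marker PTPRC and the endothelial marker TEK had none, and the epithelial keratin KRT5 had an entry in both. Of all 15812 protein-coding genes with a start, 77.7% had a shared region within 5 kb, a wider distance. A region of both lists near a start is thus common, so these few markers do not tell the cell type.

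Gained regions were weaker than shared regions of the fusion list, and lost regions weaker than shared regions of the wild-type list. The median strength of gained regions was 4.15, with 10% below 2.57 and 10% above 11.1, and the highest was 49.6. In the same list the shared regions had a median of 6.53. Lost regions had a median of 3.71 and a highest value of 30.4 in the wild-type list, where shared regions had 7.69. An IDR of at most 0.05 was reached by 32.9% of gained, 13.7% of lost, and 55.5% and 56.3% of shared regions in the fusion and the wild-type list. A strength of at least 20 was reached by 1246 gained and 64 lost regions, and a strength of at least 30 by 106 and 2. Values of −log10 p depend on depth, so strengths compare best within 1 list, gained with shared in the fusion list and lost with shared in the wild-type list. Gained and lost values by strength or IDR, here and below, come from different lists of unknown depth. Equal values in both lists need not mean equal strength.

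**Figure D1:**
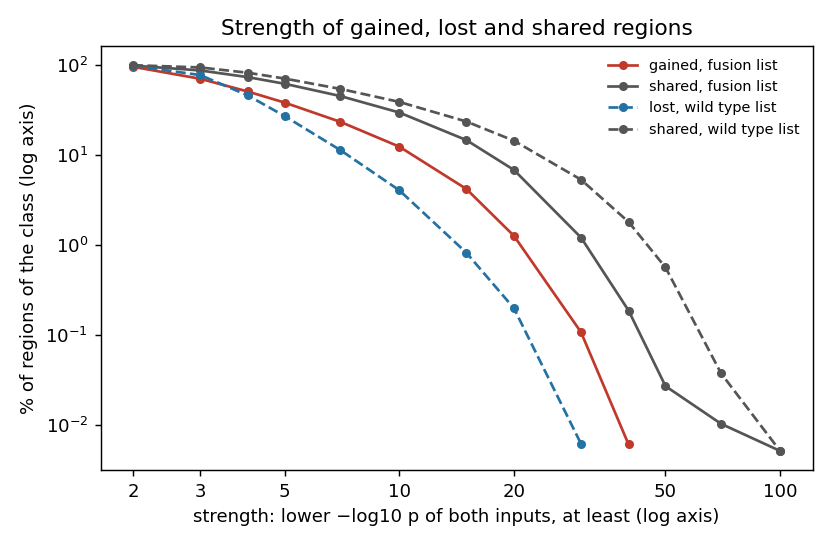
Percent of regions of a class (vertical, log axis) whose strength, the lower −log10 p of both inputs, reached a value (horizontal, log axis). Solid lines are the fusion list and dashed lines the wild-type list. Gained regions run below shared ones throughout and end at 49.6, and lost regions end at 30.4.

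By rank correlation the inputs agreed less closely over gained and lost regions than over shared ones, but not by fold. Over gained regions the Spearman correlation of both inputs was 0.681, against 0.740 over shared regions of the same list. Over lost regions it was 0.488, against 0.761 over shared regions of the wild-type list. Among entries that passed the IDR it was 0.700 for gained and 0.621 for lost regions. In the alternative with an IDR of at most 0.05 in both lists the order turned, with 0.702 for gained and 0.719 for lost. Regions share the same libraries, and the classes span different ranges of strength, so these are descriptions. In fold terms the inputs of gained regions lay 1.32 apart at the median and those of lost ones 1.33. Inputs over 2-fold apart were found in 10.0% of gained and 11.2% of lost regions, against 11.4% and 12.5% of shared ones. Between strengths of 5 and 10 the median fold apart was 1.26 for gained regions and 1.29 for shared ones in the fusion list, and 1.25 for lost and 1.33 for shared ones in the wild-type list. In this range of strength the inputs of gained and lost regions lay no further apart than those of shared regions.

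Many values repeated exactly. The 10 most common values of input 1 made up 48.0% of the values of gained regions and 24.1% of those of shared regions in the fusion list. In the wild-type list they made up 45.6% of lost and 25.1% of shared regions. The most common value, 3.88 in input 1 of the fusion list, stood at 10552 gained regions. Such steps appear as a grid in the plot of both inputs.

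**Figure D2:**
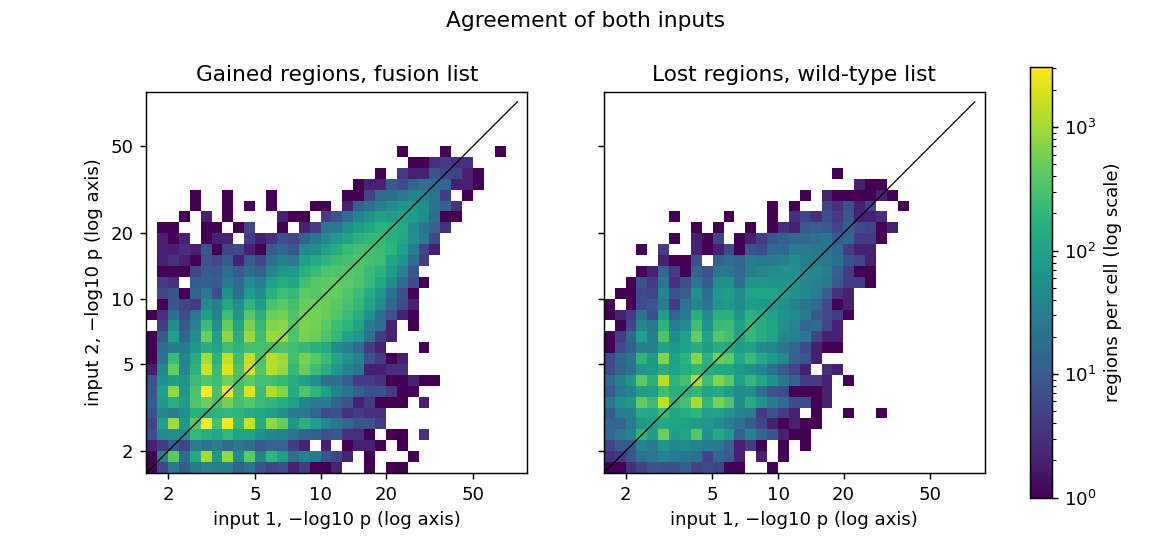
The −log10 p of input 2 against that of input 1 (log axes) over the 98192 gained regions (left, fusion list) and the 32160 lost regions (right, wild-type list). Colour gives the number of regions per cell on a log scale, and the line marks equal inputs. Gained regions reach further along the line, and the grid at low values comes from values that repeat.

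By the arithmetic difference of −log10 p, which favours strong regions over the fold used above, the inputs were furthest apart in the following. A gained region in CTNNB1, the gene of β-catenin, the effector of Wnt signalling (chromosome 3, 41239184 to 41240009), had inputs of 32.5 and 3.98. A gained region 130206 bp from TFAP2C (chromosome 20, 56769490 to 56770514) had 3.75 and 31.3. One at 92183 bp from TFAP2A (chromosome 6, 10302894 to 10304493) had 30.9 and 3.45. TFAP2C and TFAP2A are AP-2 factors of early ectoderm. All these 3 failed the IDR of 0.05, and in the SOX2 list their inputs were 16.7 and 16.2, 25.3 and 24.8, and 27.0 and 21.8. Among lost regions this difference was largest near GSX2 (29.5 and 2.84), a homeobox gene of the forebrain, near SLC1A3 (3.20 and 23.4), a glial glutamate transporter, and near DAB2 (9.08 and 27.9), an endocytic adaptor. The regions near SLC1A3 and DAB2 had a peak in all 6 libraries of the FOXA2 set, that is the wild-type, FOXA2 and CTD-deleted FOXA2 samples of the series.

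Gained regions were narrower than shared regions and wider than lost ones. Their median width was 496 bp, from 122 to 2345 bp, against 378 bp for lost and 820 bp for shared regions. Over 1 kb were 4.17% of gained, 1.89% of lost and 32.3% of shared regions. A shared region may join several entries, whereas gained and lost regions were single entries. With an IDR of at most 0.05 in both lists gained and lost regions did not keep this order, at 694 and 696 bp. Width rose with strength, from a median of 350 bp in gained regions of strength 2 to 3 to 873.5 bp in those of 20 to 50. In total the gained regions covered 52.2 Mb, the lost 13.8 Mb and the shared 67.7 Mb. The widest gained region, in the zinc-finger gene ZNF717 (chromosome 3, 75777206 to 75779550, 2345 bp), was weak, at 5.49 and 4.74. The next widest, 217775 bp from WDR72 (2198 bp) and 534663 bp from LOC124905368 (2153 bp), had lower inputs of 3.07 and 4.00.

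Gained regions lay away from gene starts. Only 0.961% of them (888 of 92436, interval 0.900 to 1.03) were within 1 kb of the start of a protein-coding gene, against 3.12% of lost (2.93 to 3.32) and 15.05% of shared regions (14.8 to 15.3). Starts were known for 15812 of 19974 protein-coding genes and those on chromosome 8 were not used here, so regions on that chromosome were left out. Within 50 kb lay 32.5% of gained, 40.8% of lost and 50.2% of shared regions, and the median distance was 108646, 73927 and 49474 bp. Over 500 kb from any such start lay 16.7% of gained, 10.1% of lost and 8.48% of shared regions. Gene bodies held more equal parts, at 42.3%, 43.4% and 50.3%. The share of gained regions within 1 kb was below that of lost regions in each of the 6 alternatives run for both classes.

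Strong gained regions were no nearer to starts than weak ones. Within 1 kb lay 1.26% of gained regions of strength 2 to 3 and 0.533% of those of strength 20 to 50. In shared regions of the fusion list the share went the other way, from 6.87% to 43.7%.

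**Figure D3:**
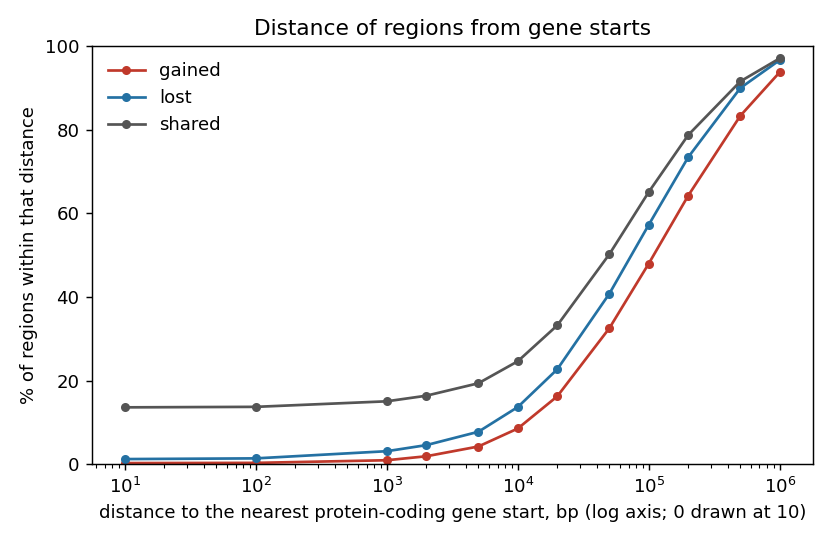
Percent of regions (vertical) within a distance of the nearest protein-coding gene start (horizontal, log axis, distance 0 drawn at 10 bp). The 3 lines are gained, lost and shared regions. The gained line lies lowest at every distance drawn, with 0.961% within 1 kb.

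Gained regions stood in groups more often than lost regions and nearly as often as shared ones. Chained at gaps of up to 10 kb, 53.7% of them stood in groups of 2 or more, against 28.9% of lost and 49.8% of shared regions. When lists of equal length were used, 36.2% of gained and 40.5% of lost regions stood in such groups, so the order turned. The class of the next region within 10 kb was read as well. After a gained region it was gained in 53.0% of cases, after a lost region in 39.5% and after a shared one in 38.1%. After a lost region it was lost in 19.1%, after a gained one in 14.6% and after a shared one in 18.6%. Over all merged regions 47.3% were gained and 15.5% lost. Groups of 5 or more numbered 950 over 98192 gained, 39 over 32160 lost and 683 over 77306 shared regions. The largest group held 15 gained, 13 lost and 28 shared regions.

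The largest gained group held 15 regions over 59.9 kb of chromosome 20 (29134973 to 29194874), with no annotated gene inside. Another group of 15 spanned 67.4 kb of chromosome 12 (37688964 to 37756329), and one of 13 lay beside it (37629984 to 37677107). No shared or lost region interrupted any of these 3, and none held an annotated gene. The nearest protein-coding genes were 1618552, 560357 and 639579 bp away. The median strengths of the 3 groups were 3.86, 4.63 and 3.89, and 4, 6 and 5 of their regions passed the IDR of 0.05. The largest lost group, 13 regions over 71.0 kb of chromosome 8 among REXO1L pseudogenes, had no region that passed, and 5 shared and 3 gained regions lay within it. The next, 10 regions on chromosome 4 (49282053 to 49328226), had 9 gained regions inside it. Repeats can share reads, so the calls at such copies are uncertain. Whether the gained groups also lie in repeats was not tested. A lost group of 7 in SDK1, a synaptic adhesion gene (chromosome 7, 4185748 to 4214845), had strengths from 1.83 to 3.15, and none of the 7 passed.

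Chromosomes differed in the part gained. The gained share of regions ran from 25.7% on chromosome 19 to 56.1% on chromosome 4, and was 54.4% on the X chromosome and 54.1% on chromosome 13. It was 34.2% on chromosome 17 and 34.1% on chromosome 22. The lost share ran only from 13.5% on chromosome 4 to 20.1% on chromosome 22. Over the 23 chromosomes the gained share fell with the number of protein-coding genes per Mb (Spearman −0.842, and −0.794 without chromosomes 19 and 17). For the lost share the value was 0.564, and 0.432 without those. Chromosomes share the same libraries, so these values are descriptions.

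**Figure D4:**
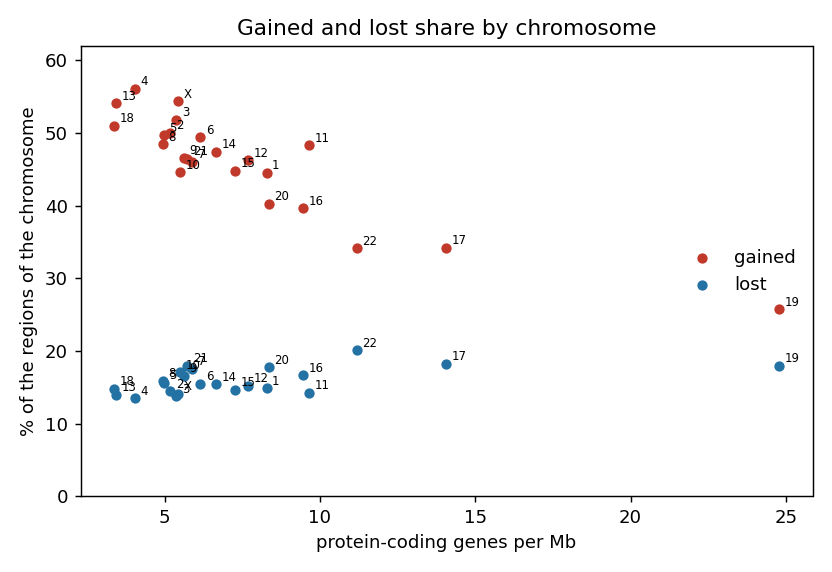
Gained and lost regions as a percent of all regions of a chromosome (vertical) against protein-coding genes per Mb (horizontal), with 1 point per chromosome and class, named beside it. Chromosome 19, with 24.8 genes per Mb, has the lowest gained share, 25.7%, and chromosome 4 the highest, 56.1%.

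The 10 strongest gained regions were 685 to 1304 bp wide, and 5 of them lay inside a protein-coding gene. Inputs of 64.4 and 49.6 marked the strongest, in TRAPPC9 on chromosome 8, a subunit of a vesicle-tethering complex. Second was a region in LINGO2, a leucine-rich repeat protein of neurons (chromosome 9, 28317567 to 28318357), with 47.2 and 42.8. SMCO4 (chromosome 11, 93512047 to 93512922) had 43.2 and 41.5. These values lay close together in both inputs, and the same held for all 10, whose inputs differed by at most 1.34-fold.
Regions in PCDH15, a protocadherin of hair-cell tip links (chromosome 10, 55348613 to 55349430, inputs 40.5 and 41.3), and in NECTIN3, an adhesion protein (chromosome 3, 111173139 to 111174211, 45.2 and 39.98), were also among the 10. The others lay between genes. Their nearest genes were TRPS1, a GATA-type repressor (603900 bp), IMMP2L, a mitochondrial peptidase (28582 bp), LRRC4C, a netrin-G ligand (1277519 bp), NXPH1, a ligand of neurexins (53746 bp), and LOC101927345 (595019 bp).
The full-length SOX2 samples form a further list of the same set, with the same wild type. All 10 regions had an entry there. In TRAPPC9 its inputs were 67.9 and 67.2, and in LINGO2 56.7 and 46.8. They were 50.5 and 50.6 in SMCO4, 48.6 and 44.3 in NECTIN3, 21.0 and 26.7 in PCDH15, and 25.7 and 27.0 near IMMP2L. Near TRPS1 they were 60.0 and 59.3, near LRRC4C 52.1 and 45.7, near NXPH1 52.9 and 48.7, and near LOC101927345 44.5 and 40.8. Values of different lists are on scales that depend on depth, so they are set side by side without a comparison. Of the 10 regions, 9 had no peak in any library of the FOXA2 set, and TRAPPC9 had one in 2, of which 1 was a wild-type library.

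The 5 strongest lost regions were spread over 5 chromosomes. One lay 132462 bp from ALG10B, a glucosyltransferase of N-glycan assembly (chromosome 12, 38183433 to 38184224), with wild-type inputs of 31.3 and 30.4. One in FGGY, a carbohydrate kinase gene (chromosome 1, 59678623 to 59679258), had 30.1 and 32.2, and one in the kinase gene NEK10 (chromosome 3, 27166735 to 27167431) had 28.0 and 33.2. One lay 15381 bp from STEAP4, a metalloreductase (chromosome 7, 88254529 to 88255510; 31.9 and 28.8), and one 88117 bp from CRYBA4, a lens crystallin (chromosome 22, 26718787 to 26719816; 29.7 and 28.7). In 4 of these 5 a peak was found in the FOXA2 set, and only the region near CRYBA4 had an entry in the SOX2 list, at 3.96 and 3.34.

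Some genes had nearly all their regions gained. Among the 2495 protein-coding genes with at least 10 regions in the gene body, the median share gained was 50% and the median share lost 14.3%. In LRP6, a co-receptor of Wnt ligands, 13 of 14 regions were gained and none lost, with 5 of the 13 at an IDR of at most 0.05. Its strongest had inputs of 14.5 and 17.2 (chromosome 12, 12217538 to 12218457). MAN1A2, a Golgi mannosidase, had 12 of 13 gained, and ANKRD36 and SMAP1, an Arf GTPase-activating protein, 11 of 12 each. CPLANE1 and INVS, both genes of primary cilia, and RAB2A, a small GTPase of the Golgi, had 10 of 11 each. ENTHD1 and UGGT2, an enzyme of glycoprotein folding, had 9 of 10, and UVRAG, which acts in autophagy, had 17 of 19. In 9 of the 10 genes no region was lost and 1 was shared. The limit of 10 regions counts gained ones, and all 10 genes passed it only through them, so the limit favoured high gained shares. The strongest of these gained regions was in ANKRD36, with inputs of 20.03 and 18.9. ANKRD36 has near-identical copies, so its calls are uncertain.

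The highest lost shares were in LPA, the gene of apolipoprotein(a), with 7 of 12 regions lost, GRIK3, a kainate receptor, with 8 of 14, and DCBLD2 with 9 of 16. WDFY4, which acts in antigen presentation by dendritic cells, had 11 of 22 lost and ICA1 10 of 20. Of these lost regions only 1, in WDFY4, passed an IDR of 0.05. LPA, GRIK3 and DCBLD2 reached the limit of 10 regions only through their lost regions. The strongest lost region in LPA had wild-type inputs of 4.78 and 6.63, and a gained one in the same gene 11.2 and 18.8.

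Gene lists were read within 5 kb and 50 kb of gene starts. Of all 15812 protein-coding genes with a start, 22.1% had a gained region within 5 kb and 14.2% a lost one. Within 50 kb these shares were 87.2% and 66.4%. Summed over all these genes, 33.4% of the regions within 50 kb were gained and 15.7% lost. A region near several genes counts for each of them. The lists below are small and their genes differ in surroundings, so the counts are descriptions.

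In the neural progenitor list, 3 of 15 genes had a gained region within 5 kb and 5 a lost one, and 41.8% of the regions within 50 kb were gained. The strongest was 45330 bp from POU3F2, a neural POU factor, with inputs of 16.9 and 15.7. SOX3 followed (13.4 and 13.6), then SOX1 (11.3 and 16.4) and OTX2 (12.6 and 11.1), all transcription factors of the early neural plate. Lost regions were strongest near LHX2 (10.5 and 16.4) and POU3F3 (8.35 and 12.7). In the pluripotency list 3 of 8 genes had a gained and 3 a lost region within 5 kb, and 39.7% of the regions within 50 kb were gained. LIN28B, which blocks maturation of let-7 microRNAs, had gained inputs of 15.5 and 16.1, and KLF4, a reprogramming factor, 17.2 and 9.58. UTF1 (5.06 and 4.57) and ZFP42 (6.97 and 4.55) had weaker ones. The strongest lost region was 2321 bp from ESRRB, an orphan nuclear receptor, at 10.9 and 14.1, and another lay near NANOG at 7.02 and 9.89.

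In the list of foregut and squamous epithelium 2 of 8 genes had a gained and 4 a lost region within 5 kb, with 34.3% of the regions within 50 kb gained. FOXE1, a forkhead factor of thyroid and palate, had the strongest gained region (19.1 and 19.2), followed by TP63, the regulator of stratified epithelium (10.97 and 14.5), ISL1 (10.7 and 7.65) and NKX2-1 (7.41 and 13.9). BMP4, a secreted morphogen, had no gained region within 50 kb and 5 lost ones, the strongest at 9.90 and 8.90. KRT8 had a lost region at 10.95 and 7.87. In the list of liver genes that FOXA factors bind, 4 of 10 had a gained and 3 a lost region within 5 kb, and 45.6% of the regions were gained. The neighbouring genes ALB and AFP, for albumin and α-fetoprotein, shared their strongest gained region (chromosome 4, 73415816 to 73416322, inputs 13.0 and 13.6), with 10 and 11 gained regions and none lost within 50 kb. These made up 10 and 11 of the 52 gained regions counted in the list. Regions near both starts were counted for each gene, so this 1 locus adds to the 45.6% through both. TF, for transferrin, had 9 gained regions, with 10.5 and 8.77 in the strongest, and G6PC1, for glucose-6-phosphatase, had one of 16.3 and 13.7. None of the strongest gained regions of ALB, AFP and G6PC1 had a peak in the FOXA2 set, whereas that of TF had one in 5 of the 6 libraries. SERPINA1 (5.49 and 5.94) and FGB (6.64 and 7.35) had the strongest lost ones.

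Of the 9 genes of the osteoblast list, 2 had a gained and 3 a lost region within 5 kb, and within 50 kb 18.6% of the regions were gained and 20.6% lost. RUNX2, the master factor of bone formation, had a gained region 33593 bp from a start (12.8 and 16.2) and a lost one at a start (8.52 and 6.85). SPP1, for osteopontin, had 12.1 and 12.03 in a gained and 12.6 and 18.7 in a lost region, the latter with a peak in all 6 libraries of the FOXA2 set. SPARC (18.002 and 9.18) and MSX2 (4.86 and 9.92) had the next strongest gained ones, and PTH1R the next strongest lost one (14.5 and 8.44). Of the 9 genes, 8 had a gained region within 50 kb. In the AP-1 list, 2 of 8 genes had a gained and 3 a lost region within 5 kb, and 19.4% of the regions within 50 kb were gained. ATF3, a stress-induced factor, had 20.7 and 16.2. JUN (8.89 and 9.86), FOSL2 (5.90 and 8.91) and FOS (6.30 and 5.38) followed, and the strongest lost regions lay near JUNB (11.9 and 7.20) and FOS (7.12 and 7.22). Shared regions within 50 kb numbered 62 around the osteoblast genes and 66 around the AP-1 genes. The median per gene was 7 and 8 shared regions, against 4 over all protein-coding genes with a start. For gained regions the median was 2 and 3, against 2 over all these genes. Whether the shared regions bear on the gained shares was not tested.

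Among receptor tyrosine kinases 9 of 21 genes had a gained and 3 a lost region within 5 kb, and 39.8% of the regions within 50 kb were gained. EGFR, the receptor of epidermal growth factor, had 21.6 and 18.5 (chromosome 7, 54999753 to 55000495). RET, the receptor of GDNF ligands, had 21.3 and 16.1, EPHA3 15.2 and 17.3, and EPHB1, which had 10 gained and no lost regions within 50 kb, 17.9 and 14.3. KIT (8.12 and 7.16) and PDGFRB (7.04 and 8.90) had the strongest lost regions. In the Notch list 6 of 15 had a gained and 2 a lost region within 5 kb, with 36.7% of regions gained. NOTCH2 had 19.5 and 14.6 in its strongest gained and 7.07 and 7.61 in its strongest lost region. MAML2, a coactivator, had 14.8 and 15.5, HEYL, a target, 16.3 and 13.9, NUMB, an inhibitor, 16.4 and 9.58, and the ligand gene JAG2 a lost region of 6.51 and 8.89. In the Wnt list 1 of 13 genes had a gained region within 5 kb and 6 a lost one, whereas within 50 kb 37.5% of the regions were gained and 25% lost. The 1 gene was CTNNB1, with 9 gained regions within 50 kb and inputs of 21.7 and 11.4 in the strongest. DKK1, an inhibitor, had 11.4 and 11.4, the ligand gene WNT3A 11.7 and 10.7, and TCF7L2, a transcription factor of the pathway, 9.27 and 10.2. The receptor gene FZD1 had a lost region of 16.3 and 12.7, and WNT7A one of 9.18 and 9.96.

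Gene-start windows under gained regions were poorer in G and C and held SOX matches more often. Of 22012 windows of protein-coding genes, 346 were overlapped by a gained region only, 493 by a lost one, 13313 by a shared one and 7852 by none. ACAATG or ACAAAG, on either strand, stood in 40.5% of windows under gained regions (140 of 346, interval 35.4 to 45.7), 20.1% under lost (16.8 to 23.8), 15.1% under shared (14.5 to 15.7) and 28.0% under none (27.0 to 29.0). The share over all windows was 20.2%. Counting 1 window per region, it was 41.2% over 323 gained regions. With strength the share under gained regions went from 32.4% (81 of 250, strength under 5) to 56.7% (38 of 67, strength 5 to 10) and 72.4% (21 of 29, strength 10 or more). Under lost regions these shares were 21.1%, 15.8% and 27.3%. The gained share exceeded the lost one in each of the 6 alternatives run for both, narrowly with an IDR of at most 0.05 in both lists (17.6% and 16.7%).

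Base composition moved with these shares. The median G and C content was 49.2% in windows under gained, 62% under lost, 66.0% under shared and 53.3% under no region, and it was 40.7% under gained regions of strength 10 or more. Among windows of 35 to 45% G and C the SOX share was 59.6% under gained (interval 50.5 to 68.2), 46.9% under lost (33.7 to 60.6), 40.1% under shared and 38.0% under no region. At 45 to 55% it was 37.8%, 28.4%, 28.1% and 33.0%, and at 55 to 65% 34.5%, 21.1%, 17.6% and 23.1%, so the intervals of gained and lost windows overlapped in all 3 bands. The same letters reversed, GTAACA or GAAACA on either strand, stood in 31.2% of windows under gained, 18.5% under lost, 13.4% under shared and 26.1% under no region. At 35 to 45% G and C the reversed letters gave 42.1%, 44.9%, 39.5% and 39.2%, at 45 to 55% 41.5%, 30.5%, 27.8% and 31.5%, and at 55 to 65% 18.97%, 21.8%, 17.7% and 19.1%. In the middle band, under gained regions, the reversed letters stood at 41.5% and the SOX letters at 37.8%.

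Other motifs were searched in the same windows, on both strands. The FOXA motif TGTTTAC stood in 4.62% of windows under gained regions (16 of 346), 3.45% under lost, 2.26% under shared and 3.76% under no region, and in 2.86% of all. The AP-1 motif TGANTCA stood in 15.6%, 10.8%, 4.995% and 7.41%, and in 6.16% of all. At 35 to 45% G and C the AP-1 shares were 20.2% under gained, 28.6% under lost, 21.3% under shared and 10.5% under no region. At 45 to 55% they were 15.9%, 17.9%, 11.03% and 9.01%, and at 55 to 65% 15.5%, 11.97%, 5.57% and 6.21%, so the order of gained and lost turned between bands. The GC box GGGCGG stood in 28.6%, 56.0%, 72.6% and 29.8%, and in 56.3% of all. The POU motif ATGCAAAT stood in 1.16%, 1.42%, 1.24% and 2.38%, and in 1.65% of all. The TEAD motif GGAATG stood in 15.3%, 13.0%, 10.5% and 15.0025%, and in 12.2% of all. The RUNX motif TGTGGT stood in 17.1%, 14.4%, 8.90% and 14.9%, and in 11.3% of all, and the CCAAT box in 37.9%, 30.0%, 35.03% and 34.2%, and in 34.7% of all. A match is a string of letters and no measure of binding.

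Other lists of the series differed in what they held at these regions. An entry of the SOX2 list stood at 54.8% of gained, 19.7% of lost and 87.9% of shared regions. At gained regions it ran with strength, from 28.3% (strength 2 to 3) to 46.3%, 76.5%, 96.3% and 99.8% (20 to 50), and it was 85.5% for gained entries that passed the IDR of 0.05. At shared regions of the fusion list it ran from 61.8% to 99.98% over the same classes, and at lost regions from 13.97% to 32.8%. The SOX2 and fusion lists are set against the same wild type, so these shares describe the lists and compare no effects. A peak in at least 1 of the 6 libraries of the FOXA2 set, which has a wild type of its own, was found at 19.8% of gained (interval 19.6 to 20.1), 28.6% of lost (28.1 to 29.1) and 76.3% of shared regions. The order of gained and lost held in each of the 6 alternatives run for both. All samples are U2OS, and by the rule lost regions were listed in wild-type U2OS and gained ones were not. The rule thus favours peaks of the FOXA2 set at lost regions, so this order is no independent result. At strengths of 20 to 50, each read in its own list, the shares were 29.3% of 1246 gained and 81.3% of 64 lost regions.
By library, gained regions had a peak at 0.279% and 1.59% in the wild-type libraries of that set (replicates 1 and 2), 11.3% and 4.76% with full-length FOXA2, and 6.63% and 11.5% with CTD-deleted FOXA2. For lost regions the shares in the same order were 1.75%, 2.32%, 12.3%, 3.80%, 7.77% and 16.6%. These libraries held from 19862 to 161136 peaks under unlike thresholds, so their shares are not on 1 scale. Of the 100 strongest lost regions, 52 had a peak in a wild-type library of the FOXA2 set, and of the 100 strongest gained ones 5. The rule favours this order as well, because it calls lost and gained regions by a wild type of the same cell line. No entry in any other list of the series was found for 38.3% of gained and 60.5% of lost regions.

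**Figure D5:**
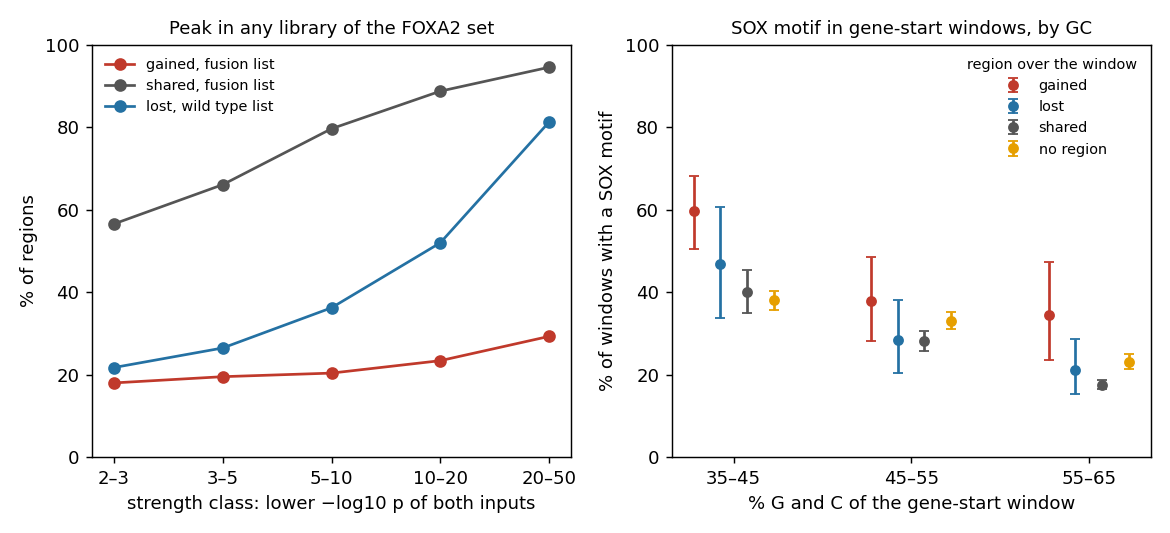
Left, percent of regions with a peak in any library of the FOXA2 set (vertical) by strength class (horizontal) for gained and shared regions of the fusion list and lost regions of the wild-type list. Right, percent of gene-start windows with a SOX match (vertical, bars are 95% Wilson intervals) by G and C content (horizontal) and class of the region over the window. Lost regions rise from 21.7% to 81.3% on the left while gained ones stay between 18.01% and 29.3%, and on the right gained windows are highest in each band.

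The genes of the construct themselves were read last. At SOX2 (chromosome 3, 181711925 to 181714436) both regions were shared. The one over the gene's beginning had inputs of 8.58 and 11.1 with the fusion and 16.2 and 23.5 in wild type, and the other 14.96 and 20.4, and 26.1 and 10.8. In FOXA2 (chromosome 20, 22580998 to 22585490) 1 region was gained (22581797 to 22582528), with inputs of 6.58 and 7.92 and an IDR of 0.0241, and it had no entry in the SOX2 list. In the FOXA2 set a peak stood there in each of the 6 libraries. Its −log10 p was 9.08 and 44.2 in the libraries labelled wild type, 17.4 and 183.4 with full-length FOXA2, and 20.02 and 22.7 with CTD-deleted FOXA2. Whether reads from a construct add to these values was not tested. A second region in FOXA2 (22583822 to 22585189) was shared, at 4.82 and 6.23 with the fusion and 12.8 and 13.4 in wild type.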

How the data were processed

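ATAC-seq peak lists were used as the authors deposited them, on hg38 per the submitters' processing notes, which name FastQC (0.10.1), Trim Galore, Bowtie2 (2.4.4), SAMtools (0.1.18), MACS2 and deepTools (2.4.1). The fusion, SOX2 and wild-type lists have the layout of the IDR procedure, with 1 list per group. The deposited −log10 p of both inputs gave strength, and the deposited score, the −log10 of the global IDR, gave the IDR. The 6 libraries of the FOXA2 set had 1 list each, with a −log10 p per peak. Depth was not given in the sources used here. The members, gene lists and alternatives were chosen with earlier results of these data known. Entries off chromosomes 1 to 22 and X (1.95% of the fusion list and 2.50% of the wild-type list) were left out. Gene names come from RefSeq (GRCh38.p14), as do the gene starts. Genes were named by strength, difference between inputs, group size, share gained or lost in the gene body, width, and, in each list, the strongest 4 gained and 2 lost. Calls were checked on simulated intervals. Motifs at summits were not analysed here. Computations used Python 3.11.15, pandas 2.3.3 and SciPy 1.17.1.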

Additional observations from a re-analysis of the deposited data

How the results depend on the processing

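Limits come from 1 list per group, unknown depth and values that repeat in steps. Leaving out a replicate could not be run, and no result has a spread between replicates. No paired analysis was possible because each group has 1 list for both of its samples. Windows of other sizes around summits for the SOX match were not run, since no genome was used. An overlap of at least 50% kept the counts of gained and lost regions and, for gained regions, the shares near a start, in groups, with a SOX match, with a SOX2 entry and with a peak in the FOXA2 set, the width and the input correlation within 1.5 times (counts), the interval (shares) or 0.01 (correlation) of, or equal to (width), the value reported. The counts stayed within 1.5 times also with summit windows of 100 bp to each side, and for lost regions with a strength of at least 5.

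Lists of equal length, which leave about equal numbers by construction, gave 52060 gained and 51882 lost regions. For gained regions they gave a median width of 620 bp, 0.684% near a start, 36.2% in groups, an input correlation of 0.691, a SOX match in 56.2% of windows, 62.2% with a SOX2 entry and 21.1% with a peak in the FOXA2 set. An IDR of at most 0.05 in both lists gave 44992 gained and 17681 lost regions, 694 bp, 2.97%, 29.2%, 0.702, 17.6%, 55.5% and 34.9% in the same order. With that IDR for the gained or lost entry only, the values were 32349 and 4416, 693 bp, 0.621%, 24.1%, 0.700, 62.2%, 85.5% and 21.5%. A strength of at least 5 in both lists gave 46866 gained regions, 675 bp, 2.20%, 31.5%, 19.4% with a SOX match, 63.8% and 30.3%. Summit windows gave 2.56% near a start, 54.9% in groups, 25.9% with a SOX match, 50.5% with a SOX2 entry and 20.1% with a peak in the FOXA2 set. Within 5 kb of a start lay 4.25% of gained regions, and within 1 kb of the start of any annotated gene 1.87%. Chained at 5 kb, 30.9% stood in groups, and at 20 kb 77.4%. The Pearson correlation of log2 inputs was 0.733. ACAATG alone stood in 21.1% of windows. Over all annotated gene starts the SOX share was 46.3% and that of the reversed letters 34.7%. In windows of protein-coding genes the reversed letters stood at 31.2%. These last alternatives, all annotated starts for the SOX share and the reversed letters, were chosen after seeing the data. What moved these values was not tested.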
